A study of Mus musculus and Homo sapiens with 12 samples.

Results

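The regions described here are the SIRT7 peaks of K562 cells on human chromosomes 9 and 22. They were taken by chromosome name alone and number 2211 of the 44319 peaks in the list, or 4.99%. Chromosome 9 held 1885 of them and chromosome 22 held 326. The study mapped SIRT7 and acetylated lysine 18 of histone H3 (H3K18Ac) with ChIP-seq, the sequencing of DNA that an antibody pulls down with its protein, in mouse fibroblasts and K562 cells. It comprised 12 samples in 7 groups. The group used here is wild-type K562 cells with an antibody to SIRT7, which had 2 samples, and the 1 peak list analysed is recorded under replicate 1. K562 is a single established line of human leukaemia cells, so the list describes that line. The K562 input and H3K18Ac samples were not analysed here.

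SIRT7 is a nuclear sirtuin that removes the acetyl group from H3K18, among other substrates, and the title of the series places it on L1 elements at the nuclear lamina. L1 elements are long interspersed repeats, which are found throughout the genome and tend to be abundant in gene-poor, lamina-associated chromatin. K562 carries the Philadelphia rearrangement, which joins BCR on chromosome 22 to ABL1 on chromosome 9 and makes an overactive tyrosine kinase. The fused segments of both chromosomes are present in extra copies in this line. K562 has also lost CDKN2A, a tumour suppressor gene in band 9p21 that encodes inhibitors of the cell cycle and of MDM2. These changes are background from knowledge of the line. The list gives positions, widths and scores of peaks and no measure of copy number.

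Peaks were divided by the position of their centre. On chromosome 22 the part proximal to 23.6 Mb, on the centromere side of the BCR break, held 175 peaks, and the distal part held 151. On chromosome 9 the ABL1-side segment from 133.6 to 135 Mb held 12 peaks, the 9p21 segment from 20 to 26 Mb held 122 and the rest held 1751. Positions are on hg19 and count from 1. Peaks carry no gene names, because no annotation of that build was used here. The score is the value the authors' peak caller gave each peak, with a median of 95.99 in the whole list and a minimum of 50. One list without replicates allows no p-value. Intervals of single values and of density ratios are at 95%. The interval of a difference runs between opposite limits of the intervals of the compared values. It is therefore wider than a 95% interval and cannot by itself show that a difference is absent. All intervals cover counting error only and treat each peak as independent of the others, and read depth is unknown. Extra or missing copies of a segment and more or less SIRT7 on it cannot be told apart in this list.

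The density of SIRT7 peaks differed sharply between the parts of chromosome 22. The proximal part had 23.2 peaks per Mb (exact Poisson interval 19.9 to 26.9), and the distal part had 5.46 per Mb (4.63 to 6.41). The ratio was 4.24 (exact conditional interval 3.39 to 5.31). On the other 20 autosomes the density was 14.7 per Mb, so the proximal part lay above them (ratio 1.57, 1.35 to 1.83) and the distal part below (ratio 0.371, 0.314 to 0.435). The proximal excess over the other autosomes depended on weak peaks. Peaks scoring no lower than the list's median numbered 40 over 7.55 Mb proximally and 18802 over 2619 Mb on the other autosomes. For its length the proximal part then held fewer, and no interval was formed for this comparison. The proximal part was 7.55 Mb long from the first peak of the chromosome, and the distal part 27.6 Mb. Its peaks covered 234 kb, or 3.10% of its length, against 105 kb and 0.380% in the distal part and 1.16% on the other autosomes.

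The proximal excess was spread over many bins of 1 Mb. From 16 to 23 Mb the bins held 23, 16, 26, 17, 35, 36 and 19 peaks. The first of these starts at the first peak of the chromosome, and the remaining 6, which lie whole in the proximal part, averaged 24.8 ± 8.98 (SD over 6 bins). The 27 whole bins of the distal part averaged 4.96 ± 4.01, with a highest count of 17 at 24 to 25 Mb, so only the 2 sparsest proximal bins came down to the range of the distal ones. Of the 6 proximal bins, 3 held at least 20 peaks, and none of the 27 distal bins did. On the other autosomes 23.8% of 2590 bins reached 20. The densest bins of the chromosome were 21 to 22 Mb with 36 peaks, 20 to 21 Mb with 35 and 18 to 19 Mb with 26. Among the bins of the other autosomes 0.965% held as many as the first of these, 1.12% as many as the second and 8.30% as many as the last.

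The count fell before the boundary was reached. The last 500 kb of the proximal part held 3 peaks, the 500 kb before it held 8, and no peak lay between 22897604 and 23278409, the longest such stretch of the proximal part at 381 kb. Low counts also lay deeper in the proximal part, with 4 and 5 peaks in the 500 kb steps from 17.6 to 18.6 Mb. The peak nearest to the boundary on the proximal side lay at chr22:23544531-23547014, 54.2 kb away, with a width of 2484 bp and a score of 52.28. The nearest on the distal side lay at chr22:23653010-23653936, 53.5 kb away, with a width of 927 bp and a score of 123.69. It opened a group of 7 peaks between 23653010 and 23683849, with widths of 478 to 1472 bp and scores of 52.1 to 171. The first 1 Mb beyond the boundary held 18 peaks in all. Within the distal part, bins at 43 to 44, 44 to 45 and 50 to 51 Mb held no peak, where 2.36% of the bins of the other autosomes were empty. The longest stretch without a peak ran from 42509093 to 45987669, over 3.48 Mb. Others of at least 1 Mb lay at 31579775 to 32691788 (1.11 Mb), 37100222 to 38182251 (1.08 Mb) and 49386926 to 51082095 (1.695 Mb).

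**Figure D1:**
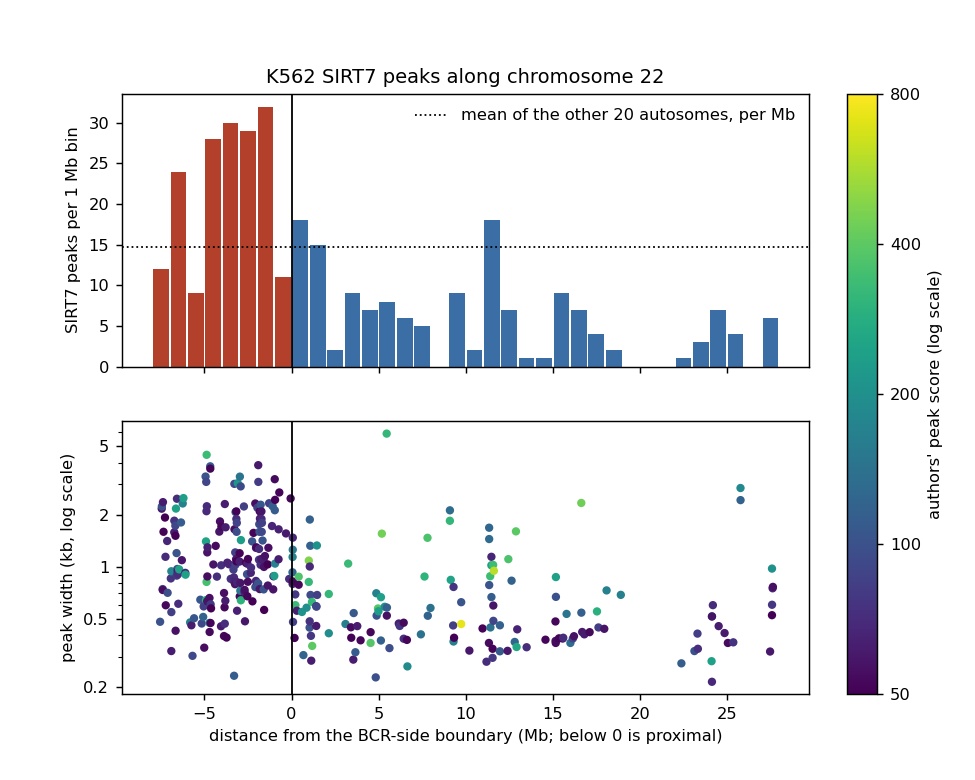
SIRT7 peaks of K562 along chromosome 22 by distance from the 23.6 Mb boundary. Upper panel: peaks per bin of 1 Mb counted from the boundary (red proximal, blue distal), with the density of the other autosomes, 14.7 per Mb, as a dotted line; the leftmost bin starts before the first peak. Lower panel: width of each peak on a log scale, coloured by score on a log scale; proximal peaks are wider (median 1054 bp against 515 bp) and mostly low in score.

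The proximal peaks of chromosome 22 were wide and low in score. Their median width was 1054 bp (order-statistic interval 964 to 1198), against 515 bp (453 to 576) in the distal part and 540 bp on the other autosomes. Peaks of at least 1 kb made up 97 of 175, or 55.4% (exact binomial interval 47.7 to 62.9), against 24 of 151, or 15.9% (10.5 to 22.7), in the distal part. They made up 18.7% of the peaks on the other autosomes. Peaks under 500 bp made up 9.71% of the proximal part, against 49.0% of the distal part and 44.3% on the other autosomes. The median score was 67.2 (63.3 to 72.0) in the proximal part and 99.7 (77.98 to 116) in the distal part. A score no lower than that of the list's median peak was found for 22.9% of proximal peaks (16.9 to 29.8) and 52.3% of distal peaks (44.0 to 60.5), and for 48.7% of the peaks of the other autosomes. These intervals did not overlap for width, for score or for the shares of peaks of at least 1 kb and of peaks at the list's median score. Among peaks scoring at least 100, 39 proximal and 75 distal, the difference in median width was 533 bp (-23 to 1520) and that in median score -65.9 (-133 to 37.3). Both of these intervals, formed from opposite limits, included 0.

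Over the whole list wider peaks scored higher, with Spearman's rho of 0.4996 across peaks. In the proximal part rho was 0.0912 across its 175 peaks, and in the distal part it was 0.446 across 151. Peaks of a list share 1 library, so these values are descriptions. A class of wide, low-scoring peaks, at least 1 kb wide with a score under 100, was set after the values were seen. It held 76 of the 175 proximal peaks (43.4%), against 3 of the 151 distal peaks (1.99%), while the other autosomes had 3.39%. Among bins of 1 Mb on chromosome 22, the share was 43.5% at 16 to 17 Mb, 12.5% at 17 to 18 Mb and 23.1% at 18 to 19 Mb. It was then 52.9%, 45.7%, 58.3% and 52.6% in the bins from 19 to 23 Mb. The bin of the boundary, 23 to 24 Mb, had 21.4%, and from 24 to 25 Mb it was 5.88%.

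High scores were rare proximally. Only 2 of the 175 proximal peaks (1.14%) reached a score of 300, against 22 of the 151 distal ones (14.6%). On the other autosomes 12.2% of peaks did. The highest proximal score was 354.48 at chr22:18717401-18718215, a peak of 815 bp. It was followed by chr22:18721206-18725652, the widest of the proximal part at 4447 bp with a score of 331.17, and by chr22:20688971-20689608 with 298.33. The distal part had its highest scores at chr22:33341244-33341708 (720.45), chr22:35217426-35218371 (595.84) and chr22:24590104-24591187 (473.56). Its widest peak spanned 5902 bp at chr22:29059330-29065231 with a score of 313.58. Peaks of at least 2 kb were found on both sides of the boundary but were commoner proximally. They made up 36 of 175 proximal peaks (20.6%, 14.8 to 27.3) and 5 of 151 distal ones (3.31%, 1.08 to 7.56). On the other autosomes 5.38% of peaks were that wide.

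**Figure D2:**
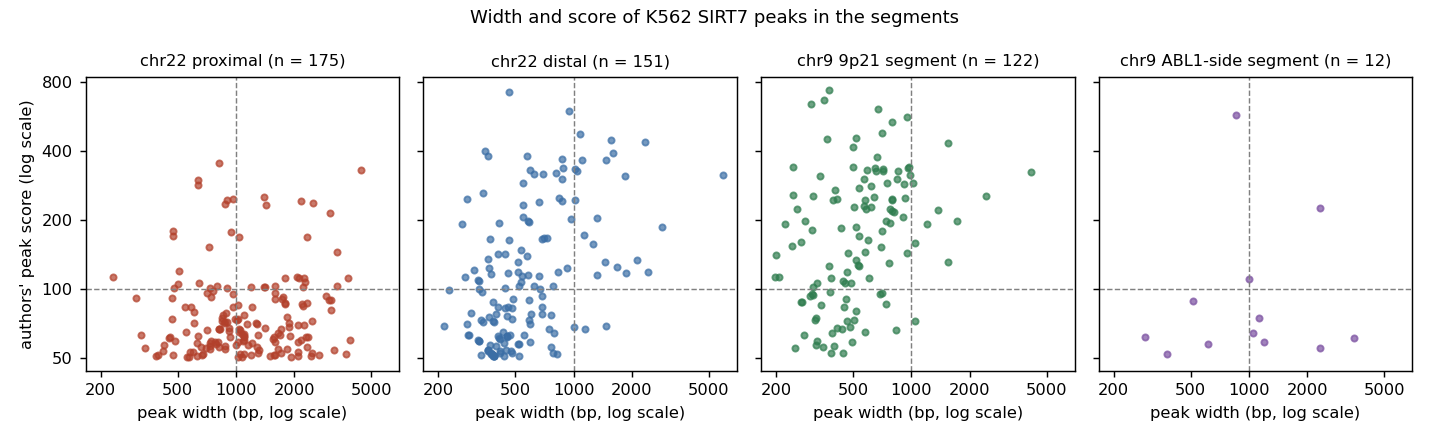
Width against score of each SIRT7 peak, both on log scales, in the proximal and distal parts of chromosome 22 and in the 9p21 and ABL1-side segments of chromosome 9. Dashed lines mark 1000 bp and a score of 100; the area beyond 1000 bp and under 100, wide and low in score, holds 76 of 175 proximal peaks, 3 of 151 distal peaks, 1 of 122 peaks in 9p21 and 5 of 12 in the ABL1-side segment.

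The proximal part was set beside windows of its own length laid end to end along the other autosomes. Of 336 such windows, 8 (2.38%) held 175 peaks or more, the median window held 113 and the fullest 200. Of the 334 windows with at least 10 peaks, 2 had a median width of 1054 bp or more. Both were sparse windows of chromosome 1, with 26 and 39 peaks, starting at 120.8 and 135.9 Mb. The median width of the windows was 536 bp. A median score of 67.2 or less was found in 23 of the 334. None of the 336 windows held as many as 76 wide, low-scoring peaks, the fullest having 48 and the median window 3. Chromosome 9 was not among the windows, and its block from 38 to 71 Mb, described further on, held 98 such peaks over 14.8 Mb.

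Proximal peaks also lay close together. Another peak lay less than 10 kb away for 58.3% of them (50.6 to 65.7), against 41.1% (33.1 to 49.3) in the distal part and 49.8% on the other autosomes. The median distance between neighbouring peaks was 18.6 kb in the proximal part and 50.9 kb in the distal part. The order of the shares depended on weak peaks. Among peaks that scored no lower than the list's median it turned round, with 6 of 40 proximal and 26 of 79 distal peaks, although the interval of that difference included 0. Some tracts of the proximal part recurred as near copies. Peaks 2090 and 1890 bp wide lay 1795 bp apart at chr22:20424695-20430469 and 1797 bp apart at chr22:21868672-21874448. Peaks 1591 and 1793 bp wide lay 10857 bp apart at chr22:20442157-20456397 and 10880 bp apart at chr22:21886098-21900361. The scores within each set were also close, at 50.8 and 70.5 against 58.3 and 68.1, and at 95.4 and 86.4 against 90.4 and 85.7. A further pair, 2365 and 1592 bp wide at chr22:16213747-16247103, recurred at chr14:19946124-19979458. With gaps allowed to differ by 5%, 10 of the 175 proximal peaks (5.71%) belonged to such pairs, none of the 151 distal peaks did, and 0.736% of the peaks of the other autosomes did. With gaps required to be identical, none of the proximal peaks did. Reads that map to several places can place 1 source at several positions, and their part in the proximal counts was not tested.

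The ABL1-side segment of chromosome 9 was not dense. Its 12 peaks over 1.4 Mb gave 8.57 per Mb (4.43 to 14.97), against 11.8 per Mb (11.3 to 12.3) in the rest of both chromosomes, which is chromosome 9 outside the 9p21 and ABL1-side segments together with distal chromosome 22. The ratio of 0.727 had an interval of 0.375 to 1.27, so a difference was not detectable at this number of peaks. The ratio depended on where the segment was drawn, and with both edges moved 0.5 Mb outward its 15 peaks gave 0.532 (0.297 to 0.880), an interval below 1. Against the 10 Mb before it, which had 8.80 per Mb, the ratio was 0.974 (0.485 to 1.79). Against the end of the chromosome after it, with 4.24 per Mb, the ratio was 2.02 (0.929 to 4.15). Of the 1860 windows of 1.4 Mb on the other autosomes, 19.4% held 12 peaks or fewer.

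The peaks of the segment are few enough to give in order. The first, at chr9:133607072-133608117, lay 7.59 kb inside the start of the segment with a width of 1046 bp and a score of 64.36. The next was chr9:133652167-133654485, which was 2319 bp wide with a score of 225.51. It was followed by chr9:133684931-133687250, 2320 bp wide with a score of 55.08. These 3 peaks lie within 100 kb of each other, and 2 of them score well below the list's median.

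A narrower peak of 615 bp with a score of 57.22 followed at chr9:133764151-133764765. The widest of the segment, 3493 bp with a score of 61.04, lay at chr9:133938052-133941544. Peaks of 1197 bp (score 58.29) and 1130 bp (score 74.55) came next, at chr9:134092081-134093277 and chr9:134153825-134154954. Of these first 7 peaks, 5 were thus at least 1 kb wide with a score under 100.

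The 3 peaks between 134214861 and 134232969 differed from one another. The first was 995 bp wide with a score of 110.74, the middle one was 291 bp with 61.51, and chr9:134232111-134232969, 859 bp wide, had the highest score of the segment at 571.3. No peak lay in the next 635 kb. The last of the 12 were narrow, 378 bp with a score of 51.88 at chr9:134868209-134868586 and 514 bp with a score of 88.53 at chr9:134885021-134885534. The first 1 Mb of the segment held 10 peaks, or 10 per Mb, and its last 0.4 Mb held 2, or 5 per Mb. These counts are small, and a change along the segment was not tested.

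In median width, median score and share of wide, low-scoring peaks the segment was nearer to proximal than to distal chromosome 22, on few peaks. Its median width was 1020.5 bp (514 to 2319), against 576.5 bp (558 to 598) in the rest of both chromosomes. Its median score was 62.9 (57.2 to 111), against 94.0 (87.5 to 100.1). The intervals overlapped in both measures. Of its 12 peaks 5 (41.7%) were wide and low in score, and 1 of the 88 peaks in the 10 Mb before it and 1 of the 26 peaks after it were. On the other autosomes 3.39% of peaks were in that class. Of the 1653 windows of 1.4 Mb with at least 10 peaks there, 20 had a median width as large and 162 a median score as low. Of all 1860 windows of that length, 45 held at least 5 wide, low-scoring peaks. Another peak lay less than 10 kb away for 2 of the 12 (16.7%), a share below both the 58.3% of proximal and the 41.1% of distal chromosome 22. Just outside the segment, the nearest peak before it was chr9:133381298-133381835, 538 bp wide with a score of 122.26. The nearest after it was chr9:135401996-135404749, 2754 bp wide with a score of 718.09.

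**Figure D3:**
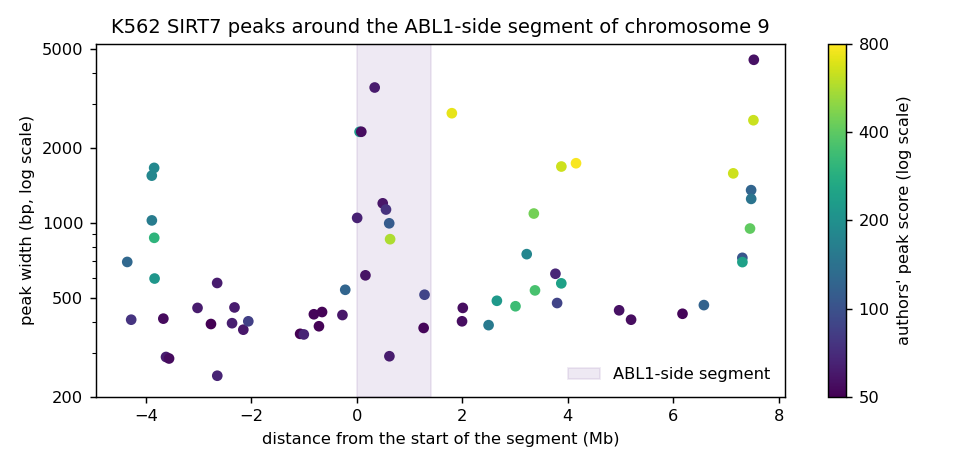
Width of each SIRT7 peak (log scale) around the ABL1-side segment of chromosome 9, by distance from the start of the segment in Mb, coloured by the authors' score on a log scale. The shaded segment holds 12 peaks, 5 of them at least 1 kb wide with a score under 100; the peaks of the 1.5 Mb before it are all narrower than 600 bp.

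The 9p21 segment, which K562 is known to have lost in part around CDKN2A, was rich in SIRT7 peaks. Its 122 peaks gave 20.3 per Mb (16.9 to 24.3), against 11.8 per Mb in the rest of both chromosomes, a ratio of 1.73 (1.42 to 2.07). Against chromosome 9 alone, without this and the ABL1-side segment, the ratio was 1.55 (1.28 to 1.87). The rest includes a peak-free stretch of 18.2 Mb from 47316606 to 65467715. Over bins that held a peak, the ratio to the rest of both chromosomes was 1.51. Against the 6 Mb on each side of the segment, which had 18.2 per Mb (15.8 to 20.7), it was 1.12 (0.889 to 1.403), a difference not detectable at this number of peaks. The short arm as a whole had 17.4 per Mb against 14.02 per Mb on the long arm, both without the long peak-free stretch.

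The bins of 1 Mb from 20 to 26 Mb held 27, 21, 29, 12, 25 and 8 peaks, with a mean of 20.3 ± 8.52 (SD over 6 bins). Of these, 4 held at least 20 peaks, or 66.7%, against the 23.8% of bins on the other autosomes. Dense bins also lay beside the segment, with 10, 24, 8, 26, 21 and 18 peaks in the bins from 14 to 20 Mb. The bins from 26 to 32 Mb held 16, 8, 27, 13, 25 and 22. No bin of the segment was empty. Its longest stretch without a peak ran from 23399894 to 23722987, over 323 kb. Of 425 windows of 6 Mb on the other autosomes, 10.6% held 122 peaks or more. The nearest peaks at the segment's edges lay 62.6 kb inside its start and 68.1 kb inside its end, with scores of 111.32 and 56.13. Just outside, the nearest lay 36.5 kb before the start with a score of 164.86 and 46.6 kb after the end with a score of 66.93.

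Scores in 9p21 were high. The median was 182 (141 to 221), against 94.0 (87.5 to 100.1) in the rest of both chromosomes, 138 (113 to 156) in the 6 Mb on each side and 93.2 on the other autosomes. The rest includes a low-scoring block of chromosome 9, described further on, and without it and distal chromosome 22 the median was 116 (107 to 122). Among peaks scoring at least 100, the median of 9p21 exceeded that of the rest by 31.1, with an interval of -8.93 to 69.7 that included 0. A score no lower than the list's median was found for 91 of 122 peaks, or 74.6% (65.9 to 82.0), against 49.3% (46.99 to 51.5) in the rest of both chromosomes and 48.7% on the other autosomes. A score of 300 was reached by 21.3% (14.4 to 29.6) of the peaks in 9p21, 12.2% in the rest and 12.2% on the other autosomes. In the 6 Mb on each side it was reached by 14.2% (9.87 to 19.6), an interval that overlapped that of 9p21. Of the 422 windows of 6 Mb with at least 10 peaks, 4 had a median score as high. These lay on chromosomes 2, 10 and 13 and held 37 to 67 peaks each, where 9p21 held 122. The interval of the median overlapped that of the adjoining 12 Mb.

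The 3 highest scores of the segment were 732.54 at chr9:21697946-21698321, 668.18 at chr9:21780413-21780766 and 640.78 at chr9:24641660-24641962. All 3 of these peaks were narrow, at 376, 354 and 303 bp. On the rest of chromosome 9 the top scores of 826.63, 826.54 and 780.49 belonged to peaks of 1237, 757 and 1734 bp, at chr9:17685545-17686781, chr9:116802786-116803542 and chr9:137757621-137759354. The widest peak of 9p21 spanned 4140 bp at chr9:24574644-24578783 with a score of 323.02. The widest of the rest of the chromosome spanned 5988 bp at chr9:113553416-113559403 with a score of 319.8.

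**Figure D4:**
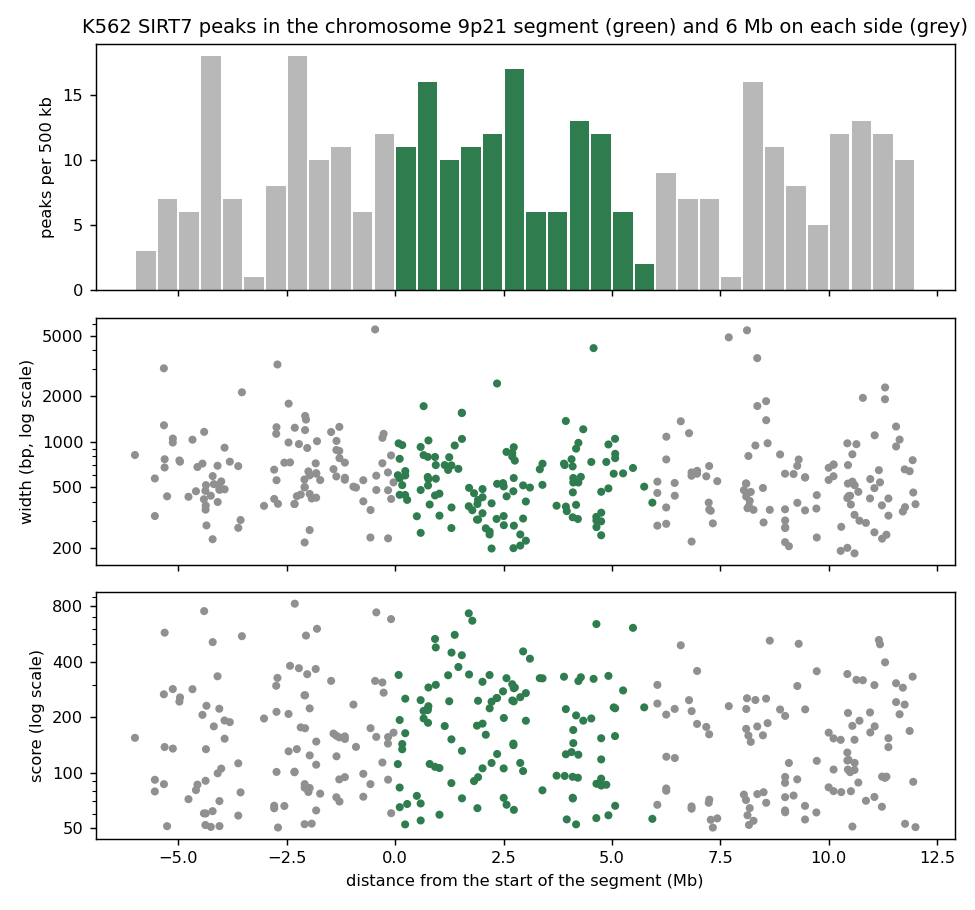
The 9p21 segment of chromosome 9 (green) and 6 Mb on each side (grey), by distance from the start of the segment in Mb. Panels give SIRT7 peaks per 500 kb, and the width and the authors' score of each peak on log scales; widths dip about 2 Mb into the segment, where the bin of 22 to 22.5 Mb has a median of 365.5 bp, while scores there stay high at a median of 233.

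Narrow peaks with high scores gathered in the middle of the segment. The median width over all of 9p21, 517 bp (464 to 586), was near the 576.5 bp of the rest, with intervals that overlapped. Among peaks scoring at least 100 the difference was -121 bp (-219 to -1). Peaks of 1 kb or wider, however, made up 8.20% (4.001 to 14.6) of 9p21, against 21.2% (19.4 to 23.2) in the rest. In the 6 Mb on each side they made up 16.5% (11.8 to 22.1), an interval that overlapped that of 9p21. In steps of 500 kb the median width was 600, 578.5 and 657.5 bp from 20 to 21.5 Mb. It was 414, 365.5 and 472 bp from 21.5 to 23 Mb, and 509.5, 540.5 and 577 bp from 23 to 24.5 Mb. A second narrow step of 404.5 bp followed at 24.5 to 25 Mb, with a median score of 105, and the last 2 steps had 726 and 451.5 bp on 6 and 2 peaks. The median scores of the 3 narrow steps from 21.5 to 23 Mb were 180, 233 and 198.

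The stretch from 21.5 to 23 Mb, chosen after its values were seen, held 40 peaks, or 26.7 per Mb. Their median width was 422.5 bp and their median score 211, against 581.5 bp and 167 for the other 82 peaks of the segment. Peaks under 500 bp with a score no lower than the list's median, a class also set after the values were seen, made up 21 of the 40 (52.5%), against 12 of the 82 (14.6%). Over the whole segment they were 33 of 122, or 27.0% (19.4 to 35.8), against 10.4% of the peaks on the other autosomes. In the 6 Mb on each side they made up 17.9% (13.04 to 23.6), an interval that overlapped that of 9p21. The reverse class, wide and low in score, held 1 of the 122.

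Peaks in 9p21 often had a close neighbour. Another peak lay less than 10 kb away for 71.3% of its peaks (62.4 to 79.1), against 50.7% (48.4 to 53.0) in the rest of both chromosomes and 64.2% (57.5 to 70.6) in the 6 Mb on each side. Neighbouring peaks lay a median of 17.2 kb apart, against 32.9 kb in the rest. After peaks closer than 1 kb were merged, the segment held 86 peaks, and 37.2% of them had such a neighbour, against 31.1% in the rest, a difference of 6.12 percentage points (-6.40 to 19.5) where it had been 20.6 (9.47 to 30.7). The difference was thus smaller once peaks less than 1 kb apart were joined. Merging removes such neighbours by construction, in the rest as well, so part of the drop was fixed in advance. No peak of 9p21 belonged to a recurring pair.

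**Figure D5:**
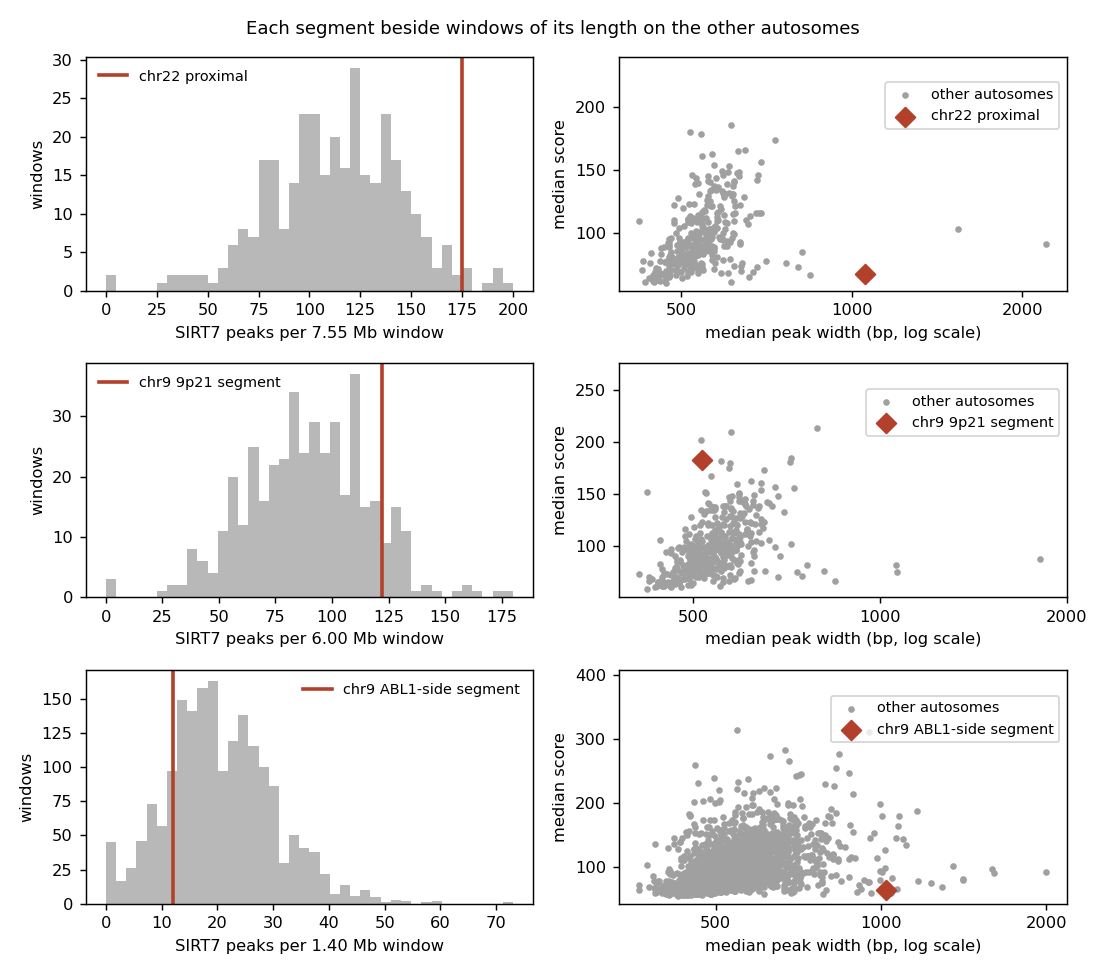
Each segment (red) beside windows of its length laid end to end on the other autosomes (grey). Left: number of windows by peaks per window. Right: median score against median width (log scale) of windows with at least 10 peaks. Proximal chromosome 22 lies at wide and low-scoring values, the 9p21 segment at high scores with an ordinary median width, and the ABL1-side segment at wide and low-scoring values on 12 peaks.

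Elsewhere on chromosome 9, the flanks of its long peak-free stretch were also dense in wide, low-scoring peaks. From 38 to 71 Mb, a range chosen after the profile was seen, 364 peaks over the 14.8 Mb outside that stretch gave 24.5 per Mb (22.1 to 27.2), against 13.8 per Mb (13.1 to 14.5) in the remainder of the chromosome outside the segments, a ratio of 1.78 (1.58 to 2.00). Their median width was 798 bp (744 to 844) and their median score 64.8 (62.7 to 66.5). The remainder had 536 bp (518 to 558) and 116 (107 to 122). Among peaks scoring no lower than the list's median, the block held 64 over 14.8 Mb and the remainder 794 over 100.7 Mb. For its length the block was then the sparser. Wide, low-scoring peaks were 98 of 364 (26.9%) there and 35 of 1387 (2.52%) in the remainder. Recurring pairs, with gaps within 5%, took in 51 of the 364 peaks (14.01%), none of the other 1387 and none of the 9p21 or ABL1-side segments. As an example, peaks 783 and 1343 bp wide lay exactly 1088 bp apart both at chr9:44401108-44404321 and at chr9:46843007-46846220. The ratio of the density of proximal chromosome 22 to that of this block was 0.946 (0.785 to 1.14). Proximal chromosome 22 had the larger median width, 1054 bp (964 to 1198) against 798 bp (744 to 844), with intervals that did not overlap. Its share of wide, low-scoring peaks was also larger, at 43.4% against 26.9%.

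The densest bins of chromosome 9 were 69 to 70 Mb with 41 peaks, 106 to 107 Mb with 39 and 42 to 43 Mb with 37. The first and the last had median widths of 1120 and 1160 bp and median scores of 61.4 and 64.2. The bin at 106 to 107 Mb, outside that block, had 556 bp and 120. All of the 17 empty bins of the chromosome lay in the peak-free stretch of 18.2 Mb. The other stretch of at least 1 Mb, from 8202764 to 9241939, was 1.04 Mb long. Over the chromosome as a whole the density was 13.4 per Mb, against 14.7 on the other autosomes, a ratio of 0.907 (0.865 to 0.9497) that rested on the empty stretch. Over bins that held a peak it was 1.01.

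Wide, low-scoring peaks numbered 1618 in the whole list, and 218 of them (13.5%) lay on chromosomes 9 and 22, which held 4.99% of all peaks. Of the 26 bins of 1 Mb with at least 8 such peaks, 6 were on chromosome 9 and 5 on chromosome 22. Those of chromosome 22 were all proximal to the boundary, and those of chromosome 9 all lay between 42 and 71 Mb. The remaining 15 were on other chromosomes, so the class was not confined to the pair.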

How the data were processed

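Wild-type K562 cells were crosslinked, SIRT7 was immunoprecipitated from sonicated nuclear chromatin, and libraries were sequenced, per the labels' protocols. MACS 1.4.2, Bowtie and hg19 are among the tools and builds in the submitters' processing notes, with Trimmomatic 0.36. Settings, the handling of reads with several map positions, the control and any pooling of replicates are not stated in the labels. The deposited list gives each peak's position and the score of the authors' peak caller. That scale would be -10 log10 of a p-value under MACS 1.4. It was used only within the list. The density of a region is its number of peak centres over its length, with chromosome ends set at the first and last peak. Poisson, conditional, binomial and order-statistic intervals are exact, at 95%. Intervals of differences in medians or shares join opposite limits of these and are wider than 95% intervals. Functions were tested on simulated data. Windows of equal length tile the other 20 autosomes from each first peak.

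Segment edges were set positions chosen for the known rearrangements of the line, and they are not measured breakpoints. Members, measures and lists were chosen with earlier results of these data known. Named peaks are, in each part, the 3 highest scores and the widest, those nearest each boundary, the 3 densest bins, and empty bins or stretches of at least 1 Mb; the ABL1-side segment is listed in full and recurring pairs were named after their values were seen. Alternatives covered score, merging, width, span, boundaries, bins and recurring pairs. No peak was left out. The mouse list was not used here. Computation used scipy 1.17.1, pandas 2.3.3 and numpy 2.4.6 under Python 3.11.15, with figures from matplotlib 3.10.9.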

Additional observations from a re-analysis of the deposited data

How the results depend on the processing

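The ratio of proximal to distal density on chromosome 22 was 1.85 for peaks scoring no lower than the list's median and 1.90 for those scoring at least 100, against 4.24 for all peaks, and stayed between 3.44 and 4.66 under the 8 other settings. The same score settings gave 2.61 and 2.63 for 9p21 over the rest (1.73 for all peaks) and 0.471 and 0.465 for chromosome 22 over the other autosomes (0.629), and 0.369 and 0.380 for the ABL1-side segment on 3 peaks (0.727). For that segment, edges 0.5 Mb outward gave 0.532 (0.297 to 0.880), the one setting whose interval lay below 1. Leaving out its bin with most peaks, 134 to 135 Mb with 7, left 5 peaks between 133.6 and 134 Mb. The ratio for that short remainder was 1.06 (0.344 to 2.48). Another setting left out peak-free stretches of at least 2 Mb together with 2 Mb on each side of them. Chromosome 22 then had 0.755 and chromosome 9 had 1.006 (0.959 to 1.055). Over occupied bins chromosome 9 had 1.007 (0.961 to 1.055), and both of its intervals included 1. The direction for chromosome 9 therefore rested on the empty stretch.

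With the score settings the median score of proximal minus distal peaks was -50.9 (-99.4 to 38.02) and -65.9 (-133 to 37.3), against -32.55 for all peaks, and that of 9p21 minus the rest was 36.5 (-4.11 to 75.1) and 31.1 (-8.93 to 69.7), against 88.2. All of these intervals included 0, and these settings remove low scores by construction. The width of proximal minus distal peaks was 495.5 bp (0 to 1253) and 533 bp (-23 to 1520), against 539 bp. The width of 9p21 minus the rest was -111 bp (-212 to 3) and -121 bp (-219 to -1). Merging peaks closer than 1 kb turned the width of 9p21 minus the rest to 91.5 bp (-59.5 bp before; both intervals included 0) and lowered the difference in near neighbours to 6.12 points (-6.40 to 19.5), from 20.6. Proximal minus distal near neighbours reversed to -17.9 and -16.6 points with the score settings (17.2 for all peaks), with intervals that included 0; the cause was not tested. Class cuts chosen after seeing the data put the wide, low-scoring share of proximal peaks at 10.1 to 20.2 times that of the other autosomes. No paired analysis was possible because 1 peak list exists here for the group and it has no list per replicate. Leaving out a replicate was not possible for the same reason. Unknown read depth limits every density, and absence of a called peak does not show absence of SIRT7.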
